A study of Saccharomyces cerevisiae YPS1009 with 40 samples.

Results

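Budding yeast that has used up the sugar in its medium stops dividing, stores trehalose and glycogen, respires, and shuts down most of the genes for making ribosomes, a state called quiescence. An aneuploid strain carries one chromosome in an abnormal copy number, so the genes on that chromosome are usually transcribed at a higher level as a group. The comparison described here was between cultures with an extra chromosome XV and euploid cultures after 7 days of growth, across all genes, and it asked which genes differed once the cells had been in stationary phase for several days. It holds 4 of the 40 RNA-seq libraries of the series, 2 from the strain with the extra chromosome and 2 from the euploid strain.

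All strains were haploids of YPS1009, an oak-soil isolate from North America, grown in rich glucose medium (YPD) in shaken flasks and sampled in log phase and at days 1, 3 and 7. The euploid strain is given in the study's strain list as MATa with an HO deletion marked by hygromycin resistance (ho∆::HphMX). The chromosome XV strain, YPS1009_Chr15, is given as MATa with another HO allele (ho-∆1) and an additional chromosome XV. Each karyotype is listed as one strain, so the extra chromosome and any other difference between the strains, the HO allele included, cannot be told apart. The other 3 aneuploid strains carry an extra chromosome IV, XII or XIV. Cells of Schizosaccharomyces pombe had been added to every sample as a spike-in, but the gene table used here holds no gene of that species, so every value below is relative to the RNA of its own library. A lower amount of all RNA per cell and fewer cells cannot be seen on this scale, nor told apart. Levels are given as CPM, counts relative to the library total, scaled by TMM, a method that sets libraries to a common scale by their shared genes. A gene was called changed when its Benjamini-Hochberg adjusted p in edgeR's quasi-likelihood test was under 0.05.

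The day 7 libraries held 1142125 and 1858064 counts for euploid replicates 1 and 2, and 2324046 and 1397148 for YPS1009_Chr15 replicates 1 and 2. Over all 40 libraries the totals ran from 725316 to 7036849 counts, and the day 7 libraries lay at the shallow end of that range. Of 6714 genes, 318 had no count in any library and 5864 passed the filter of at least 10 counts in at least 2 libraries. The labels name replicates but do not say how the cultures were started, so p-values measure spread between cultures only. In the main fit this spread was pooled over all 40 libraries and is not that of the day 7 cultures alone. The SD of the log2 difference between euploid replicates was 1.35 at day 7 and 0.31 in log phase. In tests against each euploid culture, that lone culture took its spread from the other groups.

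The extra chromosome was visible in both YPS1009_Chr15 cultures against both euploid cultures. The median log2 ratio of chromosome XV genes minus that of all other chromosomes was 0.81 (SD 0.03 over the 2 YPS1009_Chr15 cultures, 339 chromosome XV genes), a ratio of 1.75. The lowest of the 4 pairs of cultures gave 0.75 and the highest 0.87. No other chromosome departed in this way, with values from -0.15 for chromosome XIV to 0.03 for chromosome I. HO, the mating-type switching endonuclease, had 4 and 8 counts in the euploid cultures and 0 in both YPS1009_Chr15 cultures. That was at least 4.53-fold lower against a floor of 3 counts over the group.

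**Figure D1:**
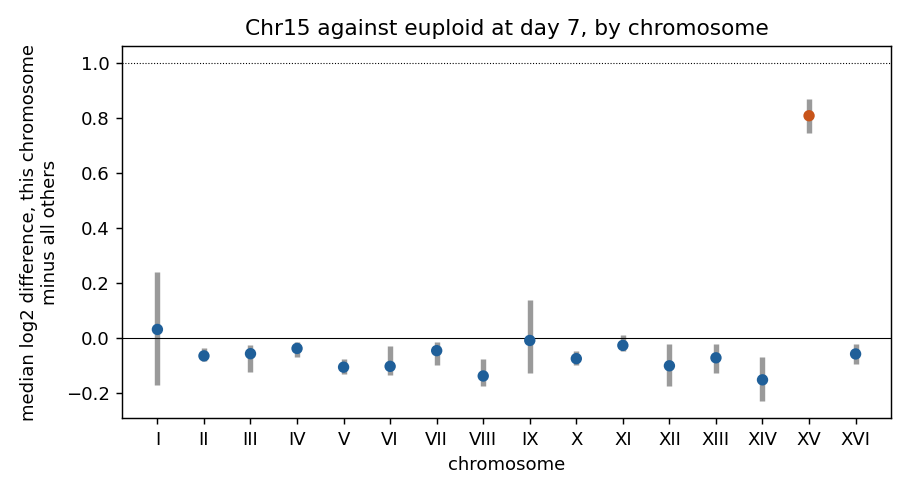
Median log2 difference of each chromosome's genes minus that of all other genes, YPS1009_Chr15 against euploid at day 7, for genes with at least 20 counts in each of the 4 libraries, with the mean of the 4 pairs of cultures as a point, their range as a grey bar and a dotted line at a doubling. Chromosome XV, at 0.81, stands above the other chromosomes, whose means lie between -0.15 and 0.03.

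One strain label went against the data. The gene for the mating-type regulator a1, read at the silent copy HMRA1 because the reference genome carries the other mating type at MAT, had 0, 0, 0 and 1 counts in the YPS1009_Chr15 replicate 1 libraries from log phase to day 7. In replicate 2 of the same strain it had 135, 175, 101 and 178 counts, and in the 32 libraries of the other strains between 53 and 231 with a median of 97.5. In log phase, replicate 1 held 10626 counts of MF(ALPHA)1, which encodes the alpha-factor pheromone, and 2331 of STE3, the a-factor receptor made by alpha cells, against 3 and 3 in replicate 2. STE2, the alpha-factor receptor made by a cells, showed the opposite order, with 65 counts in replicate 1 and 6011 in replicate 2. The library labelled YPS1009_Chr15 replicate 1 thus carried alpha-type transcripts in place of the listed MATa type, so that the 2 YPS1009_Chr15 cultures were not both of the one listed genotype. Whether replicate 1 came from another isolate is not given in the sources used here. At day 7 the mating-type genes themselves were low, and none of the 7 a-specific and none of the 4 alpha-specific genes passed the test between YPS1009_Chr15 and euploid. The main counts and the groups described at most length are also given without replicate 1.

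The 2 euploid day 7 cultures also disagreed with each other far more than the YPS1009_Chr15 cultures did. Across genes, log2 levels of the euploid cultures correlated at r = 0.87 with an SD of the difference of 1.35, whereas the YPS1009_Chr15 cultures correlated at r = 0.98 with an SD of 0.50. Between the euploid cultures, 1350 genes were higher in replicate 2 by more than 1 log2 unit and 1391 were lower. Between the YPS1009_Chr15 cultures these numbers were 165 and 156. Both YPS1009_Chr15 libraries were closer to euploid replicate 1 (r = 0.95 and 0.94) than to replicate 2 (r = 0.83 in both). These correlations are across 5864 genes, which are not independent, and are a description of the libraries. Counts of calls, most of the gene lists and the leading genes are accordingly given against each euploid culture as well as against their mean.

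**Figure D2:**
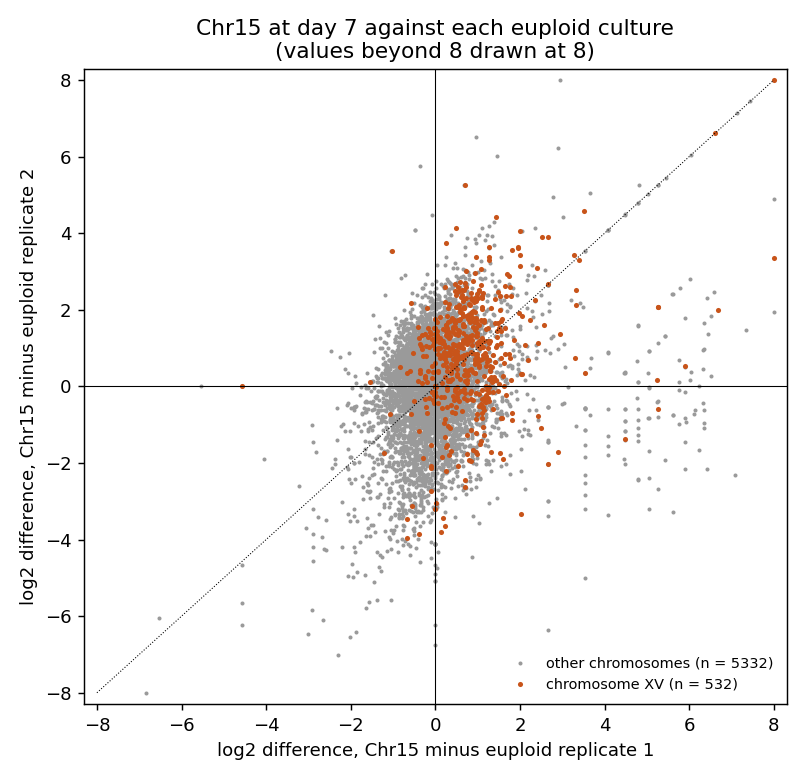
Log2 difference of YPS1009_Chr15 from euploid replicate 1 (horizontal axis) and from euploid replicate 2 (vertical axis) at day 7, 1 point per gene, with the 532 chromosome XV genes in orange, the 5332 others in grey, the line of equal differences dotted and values beyond 8 drawn at 8. The chromosome XV genes are shifted to the right and upwards (medians 0.69 and 0.86), and the cloud of the other genes is taller than it is wide.

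YPS1009_Chr15 had 734 genes higher (12.5% of those tested) and 1017 lower (17.3%) than euploid at day 7, so that 29.9% were called in one direction or the other. Against euploid replicate 1 alone, 256 genes (4.37%) were higher and 363 (6.19%) lower. Against euploid replicate 2 alone, 1634 (27.9%) were higher and 1386 (23.6%) lower. Scaled by total count alone, these numbers were 649 higher and 139 lower against replicate 1 and 1078 and 1860 against replicate 2, with medians over all genes of 0.39 and -0.25. Under the TMM scaling, 199 genes (3.39%) were called higher, and 103 (1.76%) lower, against each of the euploid cultures. Irrespective of the test, both YPS1009_Chr15 cultures lay above both euploid cultures for 1359 genes (23.2%) and below both for 1187 (20.2%). The median log2 difference over all genes was -0.06 against the mean, -0.01 against replicate 1 and 0.11 against replicate 2.

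These calls took their spread from all 40 libraries. With the 4 libraries alone, no gene was called by edgeR, and 277 higher and 374 lower had an unadjusted p under 0.05. With only the 10 day 7 libraries, 13 genes were called higher and 11 lower, and SPS4, SPR2 and ALD6, described below, were among them. Without YPS1009_Chr15 replicate 1, the library with the other mating-type transcripts, 455 genes were higher and 571 lower, of which 145 and 77 held against each euploid culture.

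Chromosome XV held a large share of the higher calls. Of its 532 genes tested, 238 (44.7%) were higher and 27 (5.08%) lower, and 106 (19.9%) were higher than each euploid culture. Of 5332 genes on the other chromosomes, 496 (9.3%) were higher and 990 (18.6%) lower, and 93 (1.74%) were higher and 102 (1.91%) lower than each. The median log2 difference of chromosome XV genes was 0.70, with 0.69 and 0.86 against euploid replicates 1 and 2. The number of chromosome XV genes higher was 177 without YPS1009_Chr15 replicate 1, 193 without its replicate 2, and 295 and 133 without euploid replicates 1 and 2.

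Among the genes ranked highest against both euploid cultures were several of sporulation, the programme by which diploid yeast go through meiosis and package the products into spores. It is switched on by starvation through the transcription activator Ime1 and the kinase Ime2, and its middle genes, which build the spore wall, are switched on by Ndt80, a factor whose binding site has the core CACAAAA. Haploid cells of one mating type normally keep this programme off. The promoters of SPS4, SPR2 and SPR3 are shown because each is a sporulation gene read at no more than 12 counts in either euploid culture and at 22 or more in both YPS1009_Chr15 cultures, and each holds the core within 300 bases of its start codon. The windows cover the bases from 300 to 101 before the start codon on the coding strand, from the RefSeq S288C genome (R64), with the core or its reverse complement in capitals. YPS1009 may differ from S288C at single bases.
SPS4, chrXV:902975-903174, minus strand: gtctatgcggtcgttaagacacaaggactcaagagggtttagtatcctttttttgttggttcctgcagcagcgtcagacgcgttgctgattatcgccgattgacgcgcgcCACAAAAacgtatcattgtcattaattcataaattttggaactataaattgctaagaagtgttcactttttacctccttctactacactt
SPR2, chrXV:746404-746603, minus strand: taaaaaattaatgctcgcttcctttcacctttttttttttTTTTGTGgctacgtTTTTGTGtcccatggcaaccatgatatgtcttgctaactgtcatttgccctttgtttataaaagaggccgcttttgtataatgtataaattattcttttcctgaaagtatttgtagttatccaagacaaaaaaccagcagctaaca
SPR3, chrVII:607263-607462, plus strand: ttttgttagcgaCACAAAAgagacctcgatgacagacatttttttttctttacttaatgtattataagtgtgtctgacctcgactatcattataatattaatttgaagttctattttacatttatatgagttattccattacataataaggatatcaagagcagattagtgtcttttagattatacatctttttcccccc
In these windows the core began 190 bases before the start codon of SPS4, 260 and 246 bases before that of SPR2 on the opposite strand, and near the upstream end of the window for SPR3. The core was not found within 600 bases of the start codon of SPS1 or OSW1, spore genes described below. It was found 540 bases before that of PHO89, a gene described below as lower.

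SPS4, a gene on chromosome XV known for its induction in sporulation (chrXV:901858-902874), had 1 and 0 counts in the euploid cultures and 941 and 806 in the YPS1009_Chr15 cultures. The levels were 0.928 and 0 CPM in euploid against 341.7 and 430.8 CPM in YPS1009_Chr15. Both YPS1009_Chr15 cultures were far above both euploid cultures, and by far more than the ratio of 1.75 of the chromosome as a whole. The ratio to euploid replicate 1 was 407 (95% exact interval 73 to 16090, counting error only), and against replicate 2, which had no count, SPS4 was at least 378.6-fold higher (adjusted p = 4.16e-11 in edgeR's quasi-likelihood test of both).

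SPR2 (chrXV:745593-746303), which encodes a putative spore wall protein, had 9 and 12 counts in euploid and 234 and 201 in YPS1009_Chr15. It was 4.17 ± 0.29 (SE) higher on the log2 scale (adjusted p = 4.16e-11). OSW1, an outer spore wall gene on the same chromosome, had 0 and 3 counts against 27 and 22, a ratio of 14.4 (4.66 to 72.4). The groups did not overlap for either gene. HUA2, a gene tied to actin assembly, was the fourth of the chromosome XV genes chosen by rank, with 2 and 5 counts against 44 and 40 (ratio 10.6, 4.92 to 27.2).

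Genes of the same programme were raised on chromosomes present in normal number. SPR3, a septin made only in sporulation (chrVII:607563-609101), had 1 and 1 counts in euploid and 22 and 33 in YPS1009_Chr15, a ratio of 24.3 (6.41 to 206, adjusted p = 2.98e-05). SPS1, a kinase needed for spore formation (chrIV:1485566-1487038), had 2 and 2 counts against 47 and 24, a ratio of 15.7 (5.86 to 59.1, adjusted p = 0.000163). SPS22, a spore wall gene with the close paralog SPS2 (chrIII:42165-43556), had 2 and 0 counts against 48 and 21, a ratio of 30.5 (8.12 to 257, adjusted p = 9.52e-05). In all of these the lower YPS1009_Chr15 culture had at least 21 counts and the higher euploid culture at most 2. RRT5 (chrVI:222090-222959), a gene whose expression is known to rise in sporulation, had 0 and 1 counts against 28 and 23, a ratio of 45 (7.73 to 1813). Left without YPS1009_Chr15 replicate 1, all 8 genes above stayed called, and SPS4 and SPR2 were higher by 10.54 and 4.33 on the log2 scale. With only the 10 day 7 libraries, SPS4 and SPR2 stayed called and the other 6 did not, with adjusted p of 0.0544 for RRT5, 0.0587 for SPS1, 0.0658 for SPR3 and SPS22, 0.0692 for HUA2 and 0.0831 for OSW1.

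**Figure D3:**
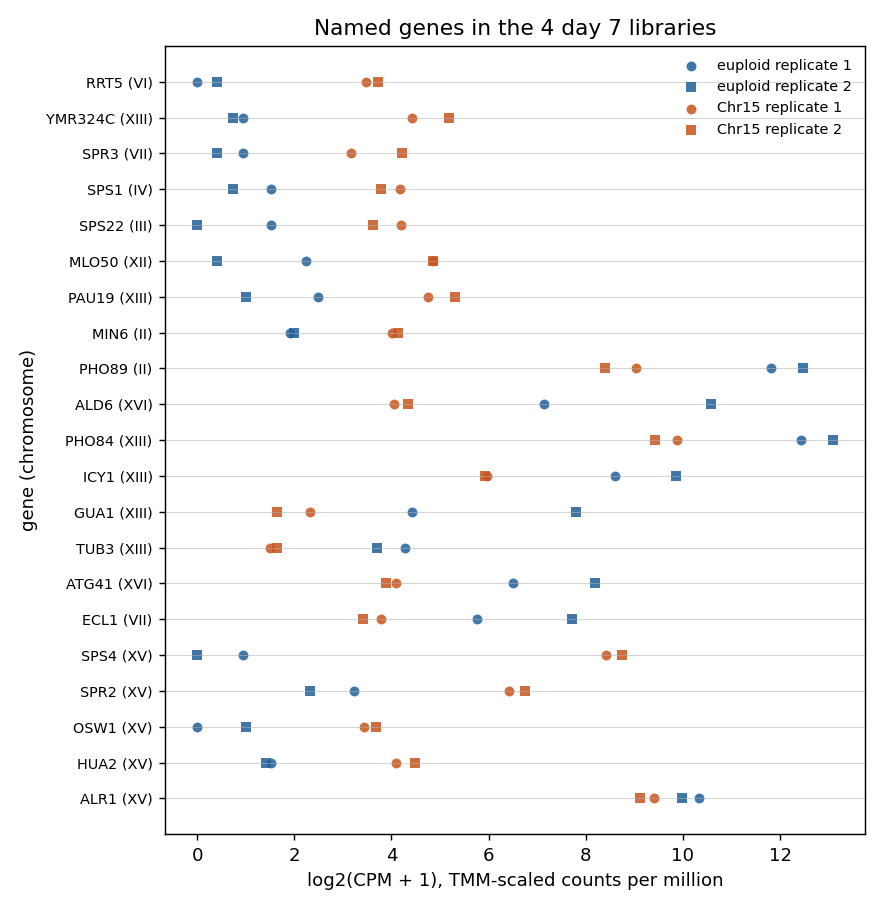
Levels of the named genes at day 7 in each of the 4 libraries, as log2(CPM + 1), with 1 point per culture, blue for euploid and orange for YPS1009_Chr15, and the chromosome in brackets. For every gene shown both YPS1009_Chr15 points lie on one side of both euploid points, with the widest gap at SPS4 (0.928 and 0 CPM against 341.7 and 430.8 CPM).

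The list of early meiosis and sporulation genes as a whole was less uniform than these examples. Of its 29 members tested, 9 were higher and 3 lower, against 12.5% and 17.3% over all genes. Those higher than each euploid culture were SPS4, MEK1, SPS1, SPS2 and RED1. MEK1, a kinase of meiotic recombination that lies on chromosome XV, was at 41.76 and 9.644 CPM in euploid and 105.7 and 96.74 CPM in YPS1009_Chr15 (2.23 ± 0.35, adjusted p = 4.25e-05). The median log2 difference of the list was 0.42 against both euploid cultures, 0.05 against replicate 1 and 0.91 against replicate 2. Leaving out euploid replicate 1 or 2 gave 15 or 5 members higher, and leaving out YPS1009_Chr15 replicate 1 or 2 gave 6 or 8.

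Further spore genes outside that list were picked out after their values were seen. SSP2, a meiosis gene on chromosome XV, had 6 and 7 counts in euploid and 93 and 70 in YPS1009_Chr15 (3.43 ± 0.46 on the log2 scale, adjusted p = 9.19e-06). MUM3, a gene of spore wall formation on the same chromosome, had 11 and 19 counts against 133 and 115 (2.85 ± 0.37, adjusted p = 6.43e-06). Both genes were called against each euploid culture, and both were among the 13 genes called higher from the 10 day 7 libraries alone.

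The sporulation transcripts were higher at day 3 than at day 7. SPS4 stood at 15.76 and 13.1 CPM in YPS1009_Chr15 in log phase, 2.738 and 3.035 CPM at day 1, 2093 and 1899 CPM at day 3 and 341.7 and 430.8 CPM at day 7. In euploid it never exceeded 8.009 CPM. SPR2 likewise reached 411.2 and 345.8 CPM at day 3 before falling to 84.96 and 107.4 CPM. The regulators were looked at after these values were seen. IME1 was at 409.4 and 542.4 CPM in YPS1009_Chr15 at day 3 against 24.74 and 23.76 CPM in euploid, and at day 7 at 41.76 and 47.03 CPM against 22.27 and 43.23 CPM. IME2 was at 639.7 and 536.7 CPM at day 3 against 57.73 and 61.23 CPM, and NDT80 at 73.55 and 71.29 CPM against 4.123 and 9.139 CPM. At day 3 both YPS1009_Chr15 cultures lay above both euploid cultures for all 3 regulators, and at day 7 NDT80, at 7.988 and 9.086 CPM against 8.352 and 7.316 CPM, overlapped euploid. The library with alpha-type transcripts and the one with a1 transcripts gave like values throughout.

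**Figure D4:**
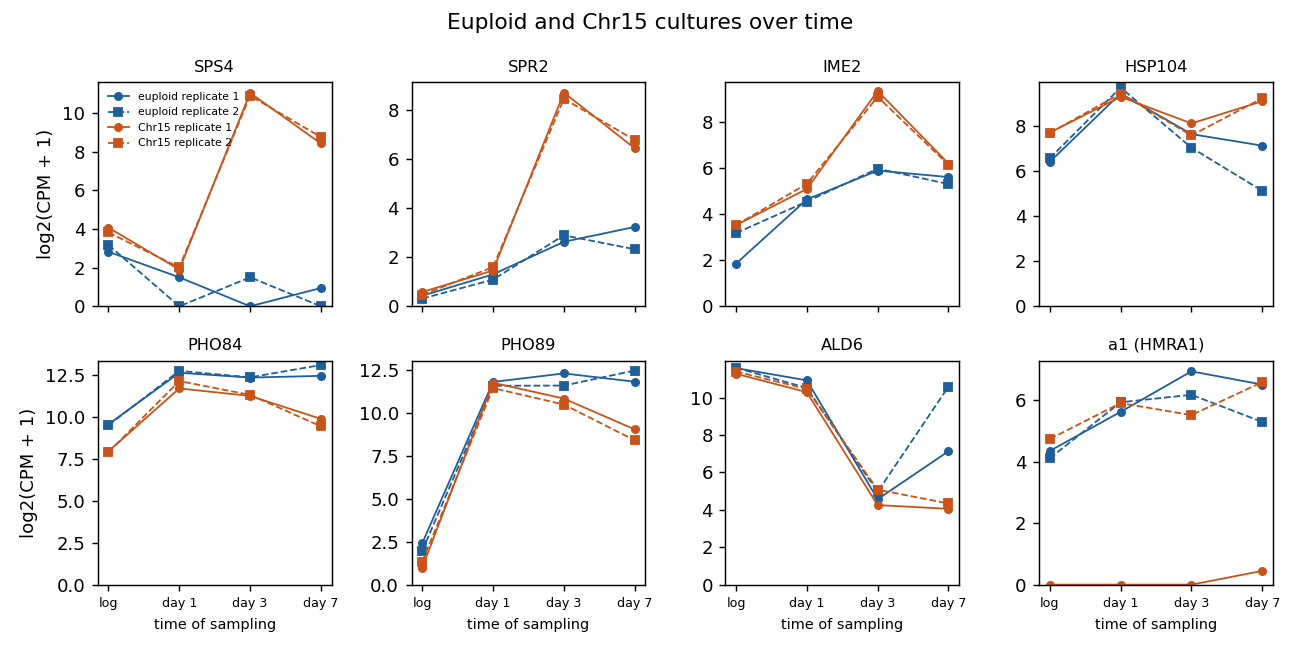
Levels of SPS4, SPR2, IME2, HSP104, PHO84, PHO89, ALD6 and HMRA1 in log phase and at days 1, 3 and 7 as log2(CPM + 1), with 1 line per culture of euploid and YPS1009_Chr15. SPS4 rises to 2093 and 1899 CPM at day 3 in YPS1009_Chr15 and not in euploid, PHO89 falls below euploid by day 3, PHO84 lies below euploid at every time, and HMRA1 is near 0 at every time in YPS1009_Chr15 replicate 1.

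The remaining high-ranked genes off chromosome XV do not belong to one group. PAU19, one of the seripauperin genes of the cell surface (chrXIII:922641-923015), had 5 and 3 counts in euploid and 72 and 72 in YPS1009_Chr15, a ratio of 15.9 (7.86 to 37.5). YMR324C, which lies beside it, had 1 and 2 counts against 56 and 66 (ratio 35.9, 12 to 177). Both values are uncertain because seripauperin genes are near-identical copies between which reads could have been split, and of the 7 seripauperins tested 2 were higher. MLO50 had 4 and 1 counts against 77 and 52 (ratio 22.8, 9.52 to 71.4), and MIN6 had 3 and 9 against 42 and 31 (ratio 5.37, 2.9 to 10.9). All 4 genes were called higher than each euploid culture.

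A fall that held against both euploid cultures was in phosphate uptake. When phosphate is scarce, yeast activate the factor Pho4, which binds CACGTG and switches on high-affinity phosphate transporters, phosphatases and the enzymes that store phosphate as polyphosphate. The upstream windows of the transporters PHO84 and PHO89 are shown because their transcripts had the smallest p of the list and both windows hold that site. They run from 500 to 301 bases before the start codon on the coding strand of S288C (R64), with CACGTG in capitals.
PHO84, chrXIII:26101-26300, minus strand: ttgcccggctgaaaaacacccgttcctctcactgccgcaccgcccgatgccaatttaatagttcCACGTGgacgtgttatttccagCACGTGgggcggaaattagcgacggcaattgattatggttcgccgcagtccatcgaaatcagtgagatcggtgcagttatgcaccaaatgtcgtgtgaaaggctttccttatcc
PHO89, chrII:798823-799022, minus strand: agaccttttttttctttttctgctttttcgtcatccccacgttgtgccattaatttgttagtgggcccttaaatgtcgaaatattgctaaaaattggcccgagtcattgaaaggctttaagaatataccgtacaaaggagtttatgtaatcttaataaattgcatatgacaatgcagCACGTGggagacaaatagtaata
The site began 436 and 414 bases before the start codon of PHO84, where the window overlaps the annotated reading frame YML122C, and 323 bases before that of PHO89.

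PHO84, the main high-affinity phosphate transporter (chrXIII:24037-25800), was at 5557 and 8685 CPM in the euploid cultures and at 938.2 and 690.5 CPM in YPS1009_Chr15. It fell by 3.13 ± 0.38 on the log2 scale (adjusted p = 2.04e-06), with -2.77 against euploid replicate 1 and -3.41 against replicate 2. PHO89, a sodium-coupled phosphate transporter (chrII:796798-798522), was at 3594 and 5648 CPM against 524.3 and 337.8 CPM, a difference of -3.42 ± 0.45 (adjusted p = 6.43e-06). Here both euploid cultures lay well above both YPS1009_Chr15 cultures. Without YPS1009_Chr15 replicate 1 the values were -3.37 for PHO84 and -3.77 for PHO89. With only the 10 day 7 libraries the values were -3.19 and -3.49 and neither passed the test (adjusted p = 0.0658 and 0.0515).

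Other members of the phosphate regulon fell with them. Of 18 members tested, 11 were lower and none higher (17.3% of all genes were lower), 6 were lower than each euploid culture, and both YPS1009_Chr15 cultures lay below both euploid cultures for 12. The median log2 difference was -1.02, with -0.94 and -1.15 against euploid replicates 1 and 2. Members lower than each culture included SPL2, which restrains the low-affinity transporter, at 275.6 and 204.2 CPM against 70.08 and 60.93 CPM (-1.86 ± 0.37, adjusted p = 0.000393). VTC4, the polyphosphate polymerase, was at 1256 and 930.5 CPM against 453.1 and 376.3 CPM (-1.40 ± 0.30, adjusted p = 0.00082). With these, PHO8, PHO81, PHO84 and PHO89 made up the 6. PHO5, the secreted acid phosphatase, was at 34.34 and 34.58 CPM against 29.77 and 42.22 CPM and did not pass the test (0.05 ± 0.37). Between 7 and 10 members were lower when any one of the 4 libraries was left out, and 11 were lower when YPS1009_Chr15 was set against the other 3 aneuploid strains. Against those strains 2 members were higher. Over all genes, 1.76% were lower than each euploid culture and 20.2% lay below both. Against the other 3 aneuploid strains, 17.8% of all genes were lower and 22.2% higher. In log phase PHO84 was already at 245.5 and 237.6 CPM in YPS1009_Chr15 against 749.5 and 724 CPM in euploid.

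Most of the other genes named here as lower were higher in euploid replicate 2 than in replicate 1. ALD6, the main cytosolic acetaldehyde dehydrogenase (chrXVI:432588-434090), was at 139.2 and 1532 CPM in euploid and 15.61 and 19.24 CPM in YPS1009_Chr15. It was lower by -3.01 against replicate 1 and -6.47 against replicate 2 (adjusted p = 5.07e-07). At day 3 ALD6 had been low in both strains, at 22.68 and 30.16 CPM in euploid and 18.09 and 32.77 CPM in YPS1009_Chr15, so that the day 7 gap lay in higher levels of the euploid cultures, replicate 2 above all. GUA1, GMP synthase, had 22 and 667 counts against 11 and 4, and HXK2, the main hexokinase of growth on glucose, 16 and 339 counts against 6 and 3. For ALD6 and GUA1 the euploid cultures differed from each other by more than the lower of them differed from YPS1009_Chr15. TUB3, the minor alpha-tubulin gene next to PHO84, had 20 and 36 counts against 5 and 4, a ratio of 7.05 (3.46 to 16.2), and is counted apart from its close paralog TUB1 only as far as reads could be told apart. ECL1 was at 52.9 and 208.5 CPM against 12.71 and 9.62 CPM, ICY1 at 389.8 and 929.1 CPM against 61.73 and 59.86 CPM, and ATG41, an autophagy gene, at 90.01 and 290.3 CPM against 15.98 and 13.9 CPM. All of these groups were non-overlapping, and the falls against euploid replicate 1 were the smaller ones except for TUB3.

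RSR1, the GTPase that marks the bud site, had 5 and 36 counts in euploid and none in either YPS1009_Chr15 culture at day 7. It was at least 15.5-fold lower against a floor of 3 counts over the group. In log phase it had 207 and 140 counts in euploid and 188 and 108 in YPS1009_Chr15, where it did not pass the test. At day 3 RSR1 had 0 and 0 counts in euploid and 7 and 6 in YPS1009_Chr15. The other aneuploid strains at day 7 held 0 or 1 counts of it, so at that time the euploid cultures were the exception.

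Transcripts of proteins that protect against heat and aggregation were raised in part. HSP104, the disaggregase that pulls proteins out of aggregates (chrXII:88623-91349), was at 137.3 and 33.59 CPM in euploid and 538.5 and 589.5 CPM in YPS1009_Chr15. It was 2.78 ± 0.40 higher (adjusted p = 1.58e-05), with 2.04 against replicate 1 and 4.07 against replicate 2. The window upstream of HSP104 is shown because it holds 3 copies of AGGGG, the stress response element bound by Msn2 and Msn4, in capitals, from 300 to 101 bases before the start codon.
HSP104, chrXII:88323-88522, plus strand: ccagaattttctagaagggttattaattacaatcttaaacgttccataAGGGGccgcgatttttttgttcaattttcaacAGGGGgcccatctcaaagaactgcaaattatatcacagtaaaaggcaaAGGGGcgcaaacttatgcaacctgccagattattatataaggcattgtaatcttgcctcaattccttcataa
The copies began 252, 220 and 172 bases before the start codon. In log phase HSP104 was already higher in YPS1009_Chr15, at 205.4 and 203 CPM against 83.22 and 92.95 CPM (1.21 on the log2 scale, adjusted p = 0.0245). It was at 683.9 and 822.4 CPM in euploid at day 1 and 617.2 and 682.9 CPM in YPS1009_Chr15, both of the latter just below both of the former. At day 3, where the strains overlapped, it was at 195.9 and 128.9 CPM against 272.5 and 188.2 CPM, and the gap at day 7 had a lower euploid level on one side and a higher YPS1009_Chr15 level on the other.

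Of 37 heat-shock proteins and chaperones tested, 14 were higher and 6 lower, against 12.5% and 17.3% of all genes, with a median of 0.63 (0.29 and 1.20 against euploid replicates 1 and 2). Those higher than each euploid culture were HSP104, STI1, HSC82 and HSP78. Against the other 3 aneuploid strains, 5 members were higher and 12 lower (22.2% and 17.8% of all genes), with a median of -0.17. STI1, a co-chaperone of Hsp90 encoded on chromosome XV, was at 598.6 and 117.1 CPM against 1468 and 1431 CPM, and HSC82, the constitutive Hsp90, at 370.3 and 117.1 CPM against 892.9 and 771.2 CPM. SSB1, a chaperone that works at the ribosome and belongs with the genes of growth, was at 34.34 and 251.1 CPM against 15.61 and 25.65 CPM and was lower than replicate 2 but not called against replicate 1. The count of members higher was 23 and 4 without euploid replicates 1 and 2, and 9 without either YPS1009_Chr15 replicate.

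Genes of the storage carbohydrates trehalose and glycogen were higher for 11 of 22 members and lower for none, and 6 (SGA1, TSL1, GLG1, GSY1, UGP1 and TPS1) were higher than each euploid culture. SGA1, a glucoamylase that breaks down glycogen in sporulating cells, was at 17.63 and 9.311 CPM against 57.73 and 61.46 CPM (2.30 ± 0.31, adjusted p = 6.92e-06). TSL1, a subunit of trehalose synthase, was at 92.8 and 25.94 CPM against 230.2 and 311.1 CPM (2.27 ± 0.35, adjusted p = 3.36e-05). Against the other 3 aneuploid strains, 4 members were higher and 4 lower (22.2% and 17.8% of all genes). The day 7 difference from euploid lay below the log-phase one for 8 members and above it for none (9.48% and 4.13% of all genes). Both YPS1009_Chr15 cultures lay above both euploid cultures for 13 of the 22. Over all genes, 12.5% were higher than euploid, 17.3% lower, 3.39% higher than each euploid culture and 23.2% above both. The median of the list was 0.73, with 0.40 against euploid replicate 1 and 1.36 against replicate 2, and leaving out 1 library gave from 6 to 16 members higher.

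Among 21 hydrophilins and stationary-phase proteins, small proteins that accumulate as cells dry or starve, 8 were higher and 1 lower, against 12.5% and 17.3% of all genes, or 7 and 1 without YPS1009_Chr15 replicate 1. GRE2, a reductase on chromosome XV, was at 39.9 and 19.95 CPM against 104.6 and 117.6 CPM (1.98 ± 0.31, adjusted p = 4.11e-05), and YGP1, a secreted glycoprotein of stationary phase, at 11.14 and 13.97 CPM against 46.48 and 63.07 CPM (2.08 ± 0.38, adjusted p = 0.000196). Both were higher than each euploid culture. The median of the list was 0.57 against both, 0.01 against replicate 1 and 1.54 against replicate 2. Against the other 3 aneuploid strains, 6 members were higher and 6 lower (22.2% and 17.8% of all genes), with a median of -0.16. The day 7 difference from euploid lay above the log-phase one for 2 members and below it for 5 (4.13% and 9.48% of all genes).

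Several large groups were called against euploid replicate 2 and hardly against replicate 1. Of 100 ribosome biogenesis factors, 65 were lower and none higher, against 17.3% and 12.5% of all genes. The median was -1.35 against both euploid cultures, but 0.10 against replicate 1 and -1.90 against replicate 2. NOG2, which is needed for export of the large subunit precursor, was the only member lower than each culture. It was at 69.6 and 265.7 CPM against 34.49 and 36.34 CPM (-2.28 ± 0.37, adjusted p = 5.77e-05). Without euploid replicate 2, 1 member was lower, and without replicate 1, 85 were. Without YPS1009_Chr15 replicate 1 the count was 32. Against euploid replicate 1 the list was divided, with 44 members below it and 56 above.

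The nuclear-encoded respiratory chain showed the mirror image. The shares over all genes, for this list and the next, were 12.5% higher and 17.3% lower. Of 41 members, 16 were higher and 1 lower, with medians of 0.11 against replicate 1 and 1.33 against replicate 2, and 31 or 3 higher without euploid replicate 1 or 2 and 9 without YPS1009_Chr15 replicate 1. CYC7, the cytochrome c isoform made when oxygen is low, at 52.9 and 27.93 CPM against 96.22 and 97.27 CPM (1.35 ± 0.24, adjusted p = 0.000129), was higher than each culture, as were COX5B, a cytochrome c oxidase subunit, and CYT1, cytochrome c1, which lies on chromosome XV. Of 22 genes of fatty acid beta-oxidation, 9 were higher and none lower, or 3 higher without YPS1009_Chr15 replicate 1, with a median of -0.29 against replicate 1 and 1.70 against replicate 2. In 23 of the 42 gene lists examined, the medians against the 2 euploid cultures had opposite signs.

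**Figure D5:**
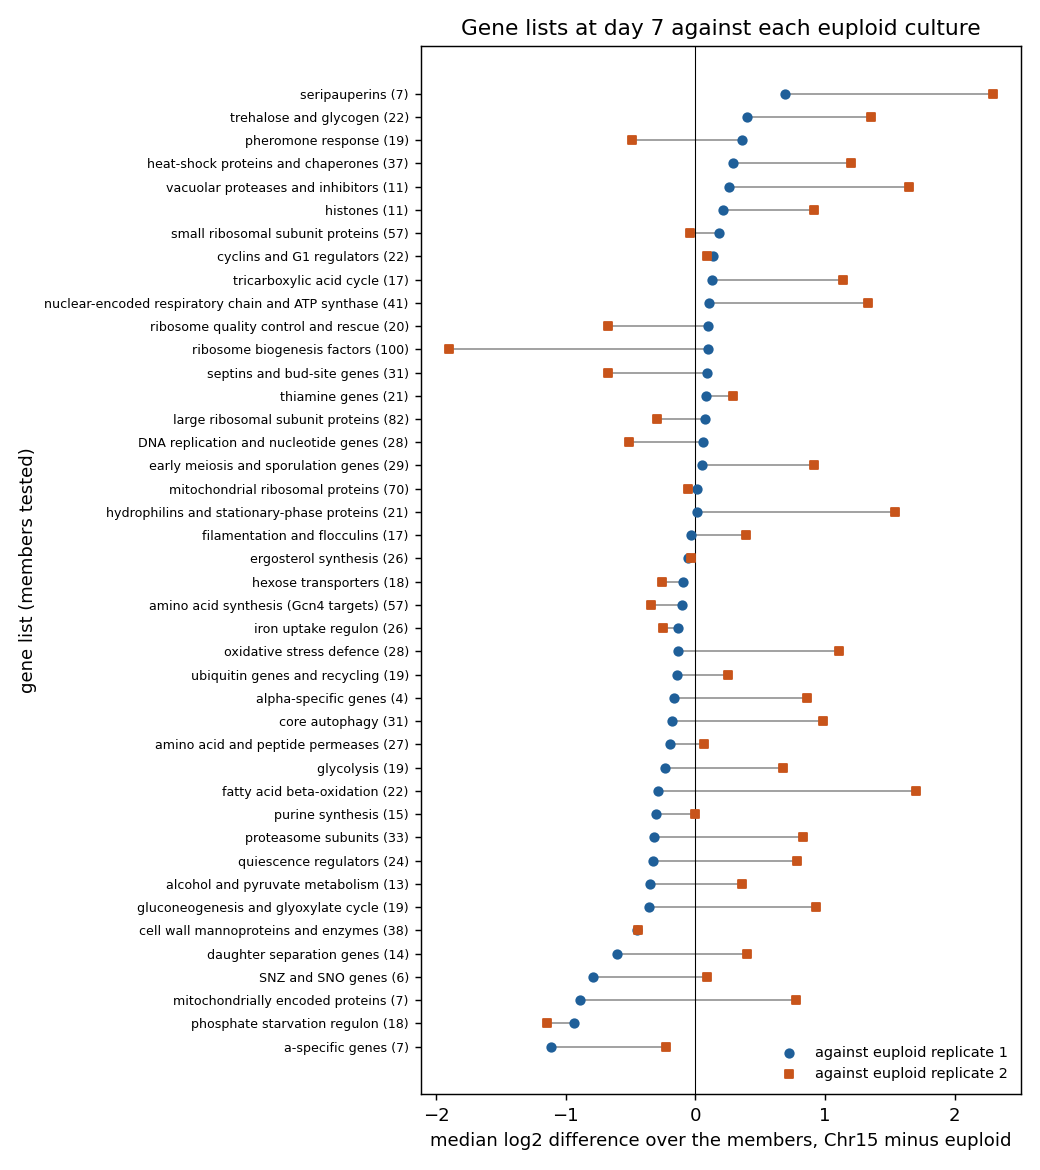
Median log2 difference of YPS1009_Chr15 from euploid replicate 1 (blue circles) and from euploid replicate 2 (orange squares) at day 7 for each of the 42 gene lists, with the number of members tested in brackets and a line joining both values of a list. The phosphate list lies below 0 against both cultures (-0.94 and -1.15), trehalose and glycogen above 0 against both (0.40 and 1.36), and ribosome biogenesis near 0 against replicate 1 (0.10) but at -1.90 against replicate 2.

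Cell wall genes were called in both directions, and the share of higher members was near the 12.5% of all genes. Over all genes, 17.3% were lower. Of 38 members, 4 were higher and 16 lower, or 5 and 11 without YPS1009_Chr15 replicate 1, with medians of -0.45 and -0.44 against euploid replicates 1 and 2. GAS5, a glucan-remodelling enzyme on chromosome XV, was at 94.65 and 48.55 CPM against 284.3 and 310.5 CPM (2.10 ± 0.26, adjusted p = 3.22e-06). PST1, a wall protein induced by wall damage, was at 131.8 and 562.7 CPM against 59.18 and 30.46 CPM (-2.95 ± 0.44, adjusted p = 2.18e-05). Higher than each culture were GAS5, TIR4 and GAS4, all on chromosome XV, where 19.9% of all genes tested were. GAS4 is a spore wall enzyme. Lower than each were PST1, HSP150 and SED1.

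Within chromosome XV the excess was broad but not uniform. Of the 339 genes with at least 20 counts in each library, 253 (74.6%) lay above the median of the other chromosomes against both euploid cultures, 12 (3.54%) below it against both and 74 above it against one culture only. On the other chromosomes 28% lay above and 28% below their median against both cultures. Against euploid replicate 1, the middle of the chromosome XV genes ran from 0.07 at the tenth percentile to 1.42 at the ninetieth, and against replicate 2 from -0.60 to 2.06. Ribosomal protein genes showed the chromosome in part. Of those tested, 7 small-subunit and 6 large-subunit genes lie on chromosome XV. In the main fit 6 small-subunit and 6 large-subunit genes were higher, of which 1 and 3 lie on other chromosomes. Over all genes, 12.5% were higher and 3.39% higher than each euploid culture. All 4 small-subunit genes higher than each culture (RPS30B, RPS15, RPS28A and RPS7A), of 57 tested, and both large-subunit genes (RPL33B and RPL25), of 82 tested, lie on chromosome XV. RPS30B was at 225.5 and 119.7 CPM against 511.6 and 455.4 CPM (1.5 ± 0.25, adjusted p = 6.62e-05) and RPS15 at 113.2 and 91.45 CPM against 271.2 and 244.2 CPM (1.34 ± 0.28, adjusted p = 0.00059). The medians of both lists, 0.04 for the small and -0.16 for the large subunit, lay near that of all genes.

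One gene of chromosome XV was lower than each euploid culture. ALR1, the main magnesium transporter of the cell surface (chrXV:74400-76979), was at 1295 and 1011 CPM in euploid and 676.8 and 550.5 CPM in YPS1009_Chr15 (-0.91, adjusted p = 0.00641). Both YPS1009_Chr15 cultures lay below both euploid cultures, although the strain has an extra copy of the gene's chromosome. The call was lost without YPS1009_Chr15 replicate 2 (-0.77, adjusted p = 0.0862).

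Some of the genes that the study deleted, tagged or overexpressed were looked at, among them HSP104 above, and also SSD1, which the study discusses. RQC1, RQC2 and RKR1 (also called LTN1), which encode the complex that clears peptides from stalled ribosomes, differed by -0.14 ± 0.19, 0.04 ± 0.25 and 0.22 ± 0.30 on the log2 scale. None passed the test against the mean of the euploid cultures or against either of them. HEL2, the ligase that senses collided ribosomes, was at 67.74 and 95.77 CPM against 64.63 and 59.86 CPM and was called against replicate 2 only (-0.62, adjusted p = 0.0358). Of the 20 genes of ribosome quality control and rescue, 1 was higher and 5 lower (12.5% and 17.3% of all genes), and none held against each culture. NEW1 was at 70.53 and 491.8 CPM against 49.74 and 53.98 CPM, so that its fall rested on euploid replicate 2.

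WHI5, the inhibitor of entry into the cell cycle, lies on chromosome XV and was at 70.53 and 27.27 CPM in euploid and 111.1 and 114.9 CPM in YPS1009_Chr15 (1.33 ± 0.26, adjusted p = 0.000342). Both YPS1009_Chr15 cultures were above both euploid cultures, but the difference from replicate 1 alone, 0.68, did not pass the test (adjusted p = 0.0521). CLN3, the cyclin that opposes it, differed by 0.08 ± 0.43. SSD1, an RNA-binding protein, was at 9027 and 2492 CPM against 6959 and 5884 CPM, so that YPS1009_Chr15 lay between the euploid cultures. UBI4, the polyubiquitin gene of stress, was at 1842 and 824.7 CPM against 1173 and 999.4 CPM, with overlap, and UBP6, a deubiquitinase of the proteasome, differed by 0.03 ± 0.28. Of 33 proteasome subunits, 5 were higher and 1 lower, a share of higher members near the 12.5% of all genes, and none held against each culture or without YPS1009_Chr15 replicate 1.

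The day 7 difference between the strains was then set against the difference in log phase, where the euploid cultures were alike (r = 0.99 across genes). In log phase 670 genes (11.4%) were higher in YPS1009_Chr15 and 217 (3.7%) lower. The day 7 difference exceeded the log-phase one for 242 genes (4.13%) and lay below it for 556 (9.48%), or for 125 and 791 when libraries were scaled by their total count alone, which moved the median of all genes from -0.12 to -0.41. Among genes that passed this test, SPS4, RRT5 and SPS1 had the largest positive change, of 9.33 ± 0.90, 6.40 ± 1.22 and 4.88 ± 0.99 on the log2 scale. At the other end were STE3 (-9.40 ± 2.25), RSR1 (-7.22 ± 1.20) and FIG1 (-7.02 ± 1.48). The value for STE3 came from the 2331 counts in the log-phase library of YPS1009_Chr15 replicate 1, and without that library it was no longer called (-1.49, adjusted p = 0.822). FIG1, a gene of mating, had 709 and 710 counts in the log-phase YPS1009_Chr15 cultures against 3 and 1 in euploid, and 7 and 4 against 0 and 5 at day 7. Without YPS1009_Chr15 replicate 1 at day 7 the number of genes that changed between the times was 436 rather than 798, and without euploid replicate 1 it was 2100.

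A comparison whose difference leaves out the disagreeing euploid cultures set YPS1009_Chr15 at day 7 against the mean of the other 3 aneuploid strains. Those euploid cultures were still among the 40 libraries from which the fit took its spread. The chromosome XII and IV strains disagreed between their own day 7 cultures about as much as the euploid did (SD of the difference 1.34 and 1.59, against 1.35), and the chromosome XIV strain less (0.55). The comparison called 1302 genes (22.2%) higher and 1045 (17.8%) lower, or 3288 and 325 when scaled by total count alone, which moved the median of all genes from 0.13 to 0.95. SPS4, PAU19 and YMR324C were the highest (8.31 ± 0.46, 7.28 ± 0.74 and 5.68 ± 0.64), and SPS4 in those strains reached at most 9.477 CPM at day 7. Of the 29 early meiosis and sporulation genes, 9 were higher and 5 lower in this comparison, with a median of 0.72. SPS4 itself was thus high at day 7 in YPS1009_Chr15 against the euploid and against the other aneuploid strains alike. The lowest were CIS1, PDC1 and PHO89 (-5.88 ± 0.54, -5.29 ± 0.52 and -5.06 ± 0.47). PHO89 was at 21590 and 13970 CPM in the chromosome XII strain, 63780 and 37230 CPM in the chromosome IV strain and 2739 and 3895 CPM in the chromosome XIV strain, and so higher than YPS1009_Chr15 in all 6 libraries. PDC1, pyruvate decarboxylase, was at 36580 and 39260 CPM in the chromosome IV strain but 72.66 and 131.9 CPM in the chromosome XIV strain, near the 71.53 and 52.91 CPM of YPS1009_Chr15. CIS1 was at 1501 and 368.6 CPM in the chromosome XII strain and 3262 and 2080 CPM in the chromosome IV strain, but at 24.96 and 36.02 CPM in the chromosome XIV strain, which is still above the 7.262 and 6.948 CPM of YPS1009_Chr15.

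Promoters were searched for known motifs on both strands of the 300 bases from 250 before to 50 after the start codon, in 5669 genes. AGGGG was found in 37.4% of the 91 promoters of genes higher than each euploid culture off chromosome XV, in 10.5% of the 105 on chromosome XV, in 14.6% of the 103 lower genes and in 21.8% of all promoters. CACAAAA, added after the data were seen, was found in 16.5%, 12.4%, 2.91% and 7.9% of these sets in the same order. CACGTG was found in 5.83% of the lower genes and 2.89% of all promoters, and in PHO84 and PHO89 it lies further upstream than this window. CCAAT, the core of the Hap site, was found in 28.2% of the lower genes and 43.9% of all promoters, and AAAATTT, the core of a ribosome biogenesis element, in 31.1% and 23.9%. These shares describe letters in a window and were not tested.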

How the data were processed

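Raw read counts by gene, deposited by the authors, covered 40 libraries of stranded total RNA depleted of ribosomal RNA. The submitters' processing notes name Trimmomatic 0.39, BWA 0.7.12-r1039 and HTSeq 0.7.2, and the Methods name bwa-meme and the S288c genome with YPS1009 substitutions, whose release is not given in the sources used here. Symbols came from RefSeq for 6025 genes matched by systematic name. After removal of genes below 10 counts in all but 1 library, the table was fitted with edgeR 4.0.16 (limma 3.58.1, R 4.3.3), using TMM, quasi-likelihood tests, Benjamini-Hochberg adjustment at 0.05 and 1 coefficient for each of 20 strain-by-time groups. For comparisons with each euploid culture, these became 2 groups of 1, which assumes that a lone culture varies like the other groups. The tests were also run on simulated counts with the same spread for all libraries, which cannot show how they behave where replicate cultures disagree.

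The sum of counts set the precision: intervals and the floor of 3 counts cover counting error only. Log2 CPM values used a prior count of 1. Named genes were called overall and against each euploid culture, did not overlap, had at least 20 counts in both libraries of the higher group, and were ranked by the smaller of their differences from the euploid cultures. The first 8 in each direction off chromosome XV, the first 4 higher and any lower on chromosome XV were taken, with the 2 members of smallest p per list and, for each further comparison, the 3 largest in each direction. Other list members named were chosen after their values were seen. The members and lists were chosen with earlier results of these data known. Alternatives were a replicate block, DESeq2 1.42.0 (size factors and Wald test), total-count scaling, other filters, fits of fewer libraries and leaving out each replicate.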

Additional observations from a re-analysis of the deposited data

Results flagged for a closer look

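The difference between YPS1009_Chr15 and euploid changed from log phase to day 7, by the edgeR test of the change itself, for 18 of the 26 genes named by rank. Genes named for other reasons were not counted, among them HSP104 (1.57) and UBI4 (-2.24), which passed the same test. Positive values mean a larger excess in YPS1009_Chr15 at day 7, on the log2 scale. Sporulation genes were SPS4 at 9.33, RRT5 at 6.40, SPS1 at 4.88, SPR3 at 4.69 and SPR2 at 3.65. MLO50 had 4.63, HUA2 2.64 and MIN6 2.20. Values below 0 were -5.35 for ALD6, -4.60 for ICY1, -4.59 for GUA1, -4.49 for ATG41, -4.45 for ECL1, -2.53 for TUB3 and -1.52 for PHO84, the phosphate transporter. RSR1 had -7.22. The mating genes STE3 and FIG1 had -9.40 and -7.02, STE3 from the alpha-type log-phase library of YPS1009_Chr15 replicate 1, and FIG1 with 709 and 710 counts in both log-phase cultures. Named genes were picked for their day 7 difference, or for this change, so the number is a description.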

How the results depend on the processing

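None of the genes named by rank changed direction under any alternative run. Of 356 such values, 321 kept their call and 35 lost it, 21 of them with the 4 libraries alone and 11 with the 10 day 7 libraries. The counts of 734 genes higher and 1017 lower became 0 and 0 with the 4 libraries alone and 13 and 11 with the 10 day 7 libraries, where 8 and 5 genes held against each euploid culture and 797 differed from the other 3 aneuploid strains. Scaling by total count gave 353 genes higher than each euploid culture and 3613 that differed from the other aneuploid strains, and the DESeq2 Wald test gave 160 lower than each euploid culture. Leaving out 1 library gave from 256 to 1634 genes higher and 362 to 1385 lower, with euploid replicates 2 and 1 at the extremes. The genes that changed between log phase and day 7 ran from 436 to 2100, those higher than each euploid culture from 103 to 145, those lower than each from 39 to 77, and those that differed from the other aneuploid strains from 1679 to 1707. The chromosome XV excess ran from 0.77 to 0.85 without 1 library and was 0.75 with at least 100 counts. The cause of these shifts was not tested. FIG1 was not called without euploid replicate 2 at day 7 (-2.07, adjusted p = 0.963). Same-numbered cultures of the 2 groups deviated together at r = 0.18 (190 pairs of groups: -0.46 to 0.45), and with 1 such pair the numbers do not pair the cultures. A replicate block gave 767 genes higher, 1015 lower, 197 and 105 against each euploid culture, 793 for the change from log phase and 2364 against the other aneuploid strains. At these depths, genes with few counts are limited by counting error.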

Other observations

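In log phase, genes induced by mating pheromone were high in both YPS1009_Chr15 cultures. FIG1 had 709 and 710 counts, FUS1, which helps mating cells fuse, 952 and 819, AGA1, the anchor of the a-agglutinin, 6166 and 4896, and PRM1, another fusion gene, 2139 and 1952. FIG1 had 3 and 1 counts in the euploid log-phase cultures. BAR1, the protease with which a cells degrade alpha-factor, had 23 counts in replicate 1 and 3066 in replicate 2, and the a-factor gene MFA2 had 1 and 2035. At day 7 FUS2, which acts in the fusion of mating cells, was at 8.352 and 5.653 CPM in euploid and 45.75 and 37.41 CPM in YPS1009_Chr15, higher than each euploid culture, the one higher member of 19 pheromone response genes, of which 3 were lower (17.3% of all genes were) and whose median was -0.44.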
